A study of Mus musculus with 16 samples.

Results

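The 6 genes described here, Cd34, Cd200, Lgr5, Lgr6, Lrig1 and Postn, mark the bulge or other stem cell compartments of the mouse hair follicle, and they were followed by name among 22367 protein-coding genes. Each was examined for peaks of 3 histone marks, trimethylation of histone H3 on lysine 4, lysine 27 and lysine 9 (H3K4me3, H3K27me3 and H3K9me3), in 4 cell populations sorted from skin of mice. A gene was taken to carry a mark when at least 1 bp of a peak lay within 3000 bp of any of its annotated transcript starts in mm9, and peaks over the gene body, from the first to the last annotated base, were recorded separately. EA-HFSCs were hair follicle stem cells in early anagen (PD22 to PD25, postnatal days) and LC-HFSCs were the stem cells in late catagen (PD38 to PD44). Both were sorted as CD34+/α6-integrin+ cells, while CD34-/α6-integrin+ cells sorted at those same ages made up the non-HFSC populations, called non-EA-HFSCs for early anagen and non-LC-HFSCs for late catagen. All populations came from wild-type CD1 x FVB mice, labelled as male, and 15 to 20 mice were pooled for a preparation. The authors joined the reads of independent pools before calling peaks, so there was 1 list for each population and mark, no difference between populations had a replicate check, and no test was made. The non-HFSCs were a mixture, described by the study as mostly epidermal cells and cells of the lower outer root sheath, so a mark in part of the cells and a weaker mark in all of them cannot be told apart.

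H3K4me3 is found at the starts of genes that are active or ready to be transcribed. H3K27me3 is laid down by Polycomb repressive complex 2 at silenced developmental genes, and H3K9me3 is best known from heterochromatin. Some genes carry H3K4me3 and H3K27me3 together, a state often called bivalent when both lie on the same nucleosomes. In the hair follicle the bulge is the niche of slowly cycling stem cells, CD34 is the surface antigen most used to sort them from mouse skin, and Lgr5, Lgr6 and Lrig1 label stem cells in partly different places of the follicle.

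The members differ in how their promoters are built, and the 250 bases upstream of the annotated gene start are shown for the 3 genes that carried H3K27me3 outside the bulge (Cd34, Lgr5, Cd200) and for the members with the highest and the lowest CpG content (Lrig1, Postn). Each is read 5′ to 3′ on the strand of the gene from the NCBIM37 (mm9) sequence, and capitals mark every CG dinucleotide. Cd34 (chr1:196764765-196765014, plus strand) has 6 of them, Lgr5 (chr10:115024837-115025086, minus strand) 16, Cd200 (chr16:45409167-45409416, minus strand) 6, Lrig1 (chr6:94650153-94650402, minus strand) 25 and Postn (chr3:54164781-54165030, plus strand) 4.
Cd34: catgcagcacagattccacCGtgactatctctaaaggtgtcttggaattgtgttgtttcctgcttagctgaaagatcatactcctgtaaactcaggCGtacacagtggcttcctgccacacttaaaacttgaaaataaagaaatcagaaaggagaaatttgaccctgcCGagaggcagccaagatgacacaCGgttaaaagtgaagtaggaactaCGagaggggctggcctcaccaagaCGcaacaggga
Lgr5: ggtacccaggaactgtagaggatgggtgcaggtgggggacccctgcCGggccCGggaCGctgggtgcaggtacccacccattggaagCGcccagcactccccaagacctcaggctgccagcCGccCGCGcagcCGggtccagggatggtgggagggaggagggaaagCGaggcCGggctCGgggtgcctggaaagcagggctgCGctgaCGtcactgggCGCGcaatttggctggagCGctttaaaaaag
Cd200: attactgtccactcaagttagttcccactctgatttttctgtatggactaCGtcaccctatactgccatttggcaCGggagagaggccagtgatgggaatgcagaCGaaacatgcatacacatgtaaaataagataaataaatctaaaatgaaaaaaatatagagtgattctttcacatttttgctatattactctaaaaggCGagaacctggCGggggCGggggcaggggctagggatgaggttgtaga
Lrig1: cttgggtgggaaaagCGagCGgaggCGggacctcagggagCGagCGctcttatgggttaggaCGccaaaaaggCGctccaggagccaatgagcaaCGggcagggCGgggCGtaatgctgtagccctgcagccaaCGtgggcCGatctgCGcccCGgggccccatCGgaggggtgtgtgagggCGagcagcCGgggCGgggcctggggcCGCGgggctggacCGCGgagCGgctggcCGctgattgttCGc
Postn: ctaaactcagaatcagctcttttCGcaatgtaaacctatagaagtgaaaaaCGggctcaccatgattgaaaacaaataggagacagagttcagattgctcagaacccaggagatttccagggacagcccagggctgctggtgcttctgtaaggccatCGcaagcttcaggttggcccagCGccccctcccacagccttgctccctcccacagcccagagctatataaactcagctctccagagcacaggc

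Over 1001 bp centred on the gene start, the ratio of observed to expected CpG was 0.957 for Lrig1, 0.689 for Lgr6, 0.569 for Lgr5, 0.529 for Cd200, 0.483 for Cd34 and 0.214 for Postn, where the median of all genes was 0.549. Lrig1 thus had a higher ratio than 96.0% of the genes and Postn a higher ratio than 23.5% of them. The 3 members with H3K27me3 in non-HFSCs lay in the middle of this order, between Lgr6 and Postn, which carried no H3K27me3 in any list. Of the short motifs searched on both strands of the 250 bases, none of which holds another, TATAAA (the TATA box) was found in Postn and in 12.3% of all promoters, and CCAAT in Lgr5 and Lrig1 and in 35.0%. CTTTGA, a core of TCF/LEF sites, was in none of the 6 and in 13.4% of all, and GGAAA, a core of NFAT sites, was in 5 of the 6 and in 55.6%. These are letter matches within a short window and were not read further.

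The 12 lists held 219698 peaks, from 14718 to 24498 for H3K4me3, from 1909 to 25534 for H3K27me3 and from 1414 to 42277 for H3K9me3. The shortest list of every mark was that of LC-HFSCs. The score of a peak is 10 times the negative log10 of its p-value, and the number of reads behind it is unknown here, so scores were compared within a list only. H3K4me3 lay at the starts of all 8 bulge marker genes checked in both HFSC lists and of 7 in both non-HFSC lists. The list includes the members Cd34 and Lgr5, and the 1 gene missing was Cd34, the antigen of the sort. Apart from Cd34, these H3K4me3 calls did not separate the populations. H3K27me3 lay at 0 of the 8 in EA-HFSCs (14.0% of all genes) and at 0 in LC-HFSCs (3.73%). It lay at 5 in non-EA-HFSCs (16.8%) and at 6 in non-LC-HFSCs (12.9%), with Cd34, Lgr5, Sox9, Lhx2 and Tbx1 in both. H3K4me3 also lay at all 6 basal keratinocyte markers in every population, where from 55.9% to 62.4% of all genes had it. Of the markers of cells that should be absent from the sorts, 0 of 4 leukocyte genes carried H3K4me3 in any population, 1 of 4 endothelial genes did (Kdr), 2 to 4 of 6 melanocyte genes did, and 3 of 4 dermal fibroblast genes did in each population. Among these, Kdr also carried H3K27me3 in all 4 populations, Kit and Pdgfra in all but LC-HFSCs, and Col1a1 in both non-HFSC lists. Pmel, Dct, Mitf and Thy1 carried no H3K27me3 in any population. Of 5 genes of differentiated epidermis, Krt10 and Lor carried H3K4me3 in both HFSC lists, and these and Krt1 did in both non-HFSC lists. Their part in the results at the 6 genes was not tested.

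All 6 genes carried H3K4me3 at a start in both HFSC populations, and none carried H3K27me3 there. In the non-HFSCs, Cd34 was absent from the H3K4me3 lists and present in the H3K27me3 lists, Lgr5 carried both marks, and Cd200 carried both in non-EA-HFSCs only. Lgr6, Lrig1 and Postn carried H3K4me3 and no H3K27me3 in all 4 populations. The members thus fell into those with the same H3K4me3 and H3K27me3 calls inside and outside the bulge and those whose calls differed.

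In numbers, H3K4me3 was at a start of 6 of the 6 genes in EA-HFSCs, against 62.4% of all protein-coding genes, and of 6 in LC-HFSCs, against 55.9%. It was at 5 of 6 in non-EA-HFSCs (61.7% of all genes) and at 5 of 6 in non-LC-HFSCs (58.8%), Cd34 being the exception both times. H3K27me3 was at 0 of 6 in EA-HFSCs (14.0%) and 0 of 6 in LC-HFSCs (3.73%), and both counts are close to what these backgrounds give for 6 genes. It was at 3 of 6 in non-EA-HFSCs (16.8%) and at 2 of 6 in non-LC-HFSCs (12.9%). The 2 marks were found together at 0 of 6 in EA-HFSCs (8.89%), 0 of 6 in LC-HFSCs (1.30%), 2 of 6 in non-EA-HFSCs (10.8%) and 1 of 6 in non-LC-HFSCs (6.60%). The genes were chosen as stem cell markers, so their shares are not those of a random draw of genes.

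Taken as differences between lists, H3K4me3 was present in EA-HFSCs and not in non-EA-HFSCs at 1 member (2.19% of all genes), and in LC-HFSCs and not in non-LC-HFSCs at 1 member (0.809%), Cd34 in both. H3K27me3 was in the non-EA-HFSC and not in the EA-HFSC list at 3 members (5.36%), and in the non-LC-HFSC and not in the LC-HFSC list at 2 (9.27%). Between the non-HFSC populations, H3K27me3 was in non-EA-HFSCs and not in non-LC-HFSCs at 1 member, Cd200 (4.84%). The absence from EA-HFSCs came from the H3K27me3 list with the most peaks, 25534, whereas the absence from LC-HFSCs came from that with the fewest, 1909. By bases the EA-HFSC list was not the largest, as it covered 58.2 Mb and the non-EA-HFSC list 68.3 Mb. When only the 1909 highest-scoring H3K27me3 peaks of each list were kept, Lgr5 in non-EA-HFSCs was the 1 member still marked there and 0 members were marked in non-LC-HFSCs.

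**Figure D1:**
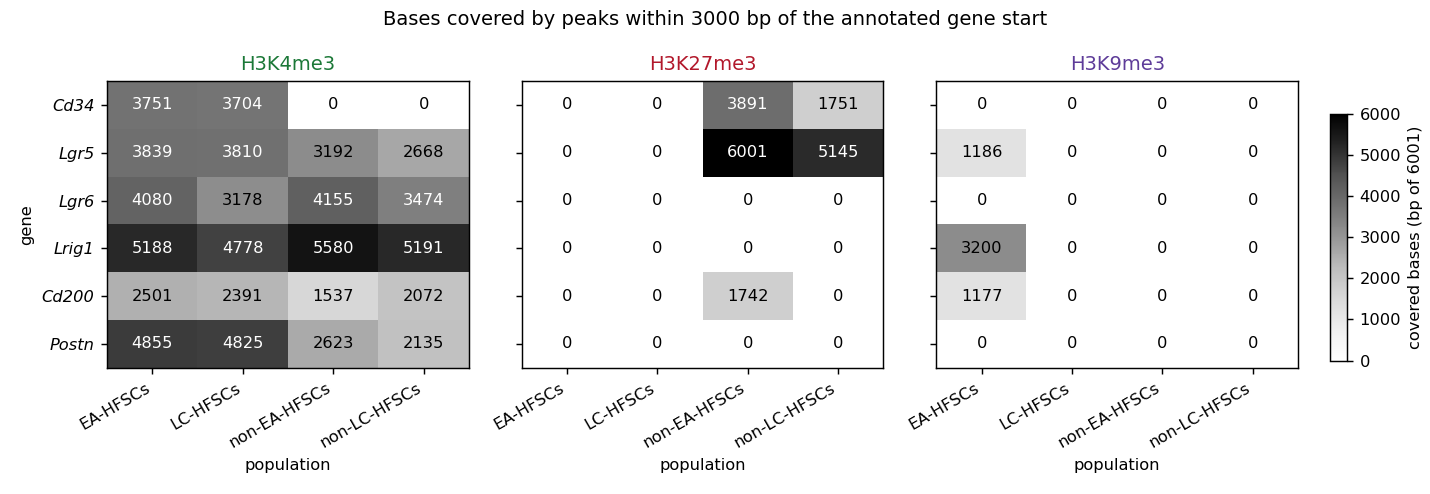
Number of bases under peaks within 3000 bp of the annotated gene start (of 6001 bp) for each gene (rows) and population (columns), in 1 panel per mark; darker cells are more covered and each cell prints its value. Cd34 has 3751 and 3704 bp of H3K4me3 in the HFSC lists and 0 in both non-HFSC lists, and all H3K27me3 values above 0 lie in the non-HFSC columns.

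**Figure D2:**
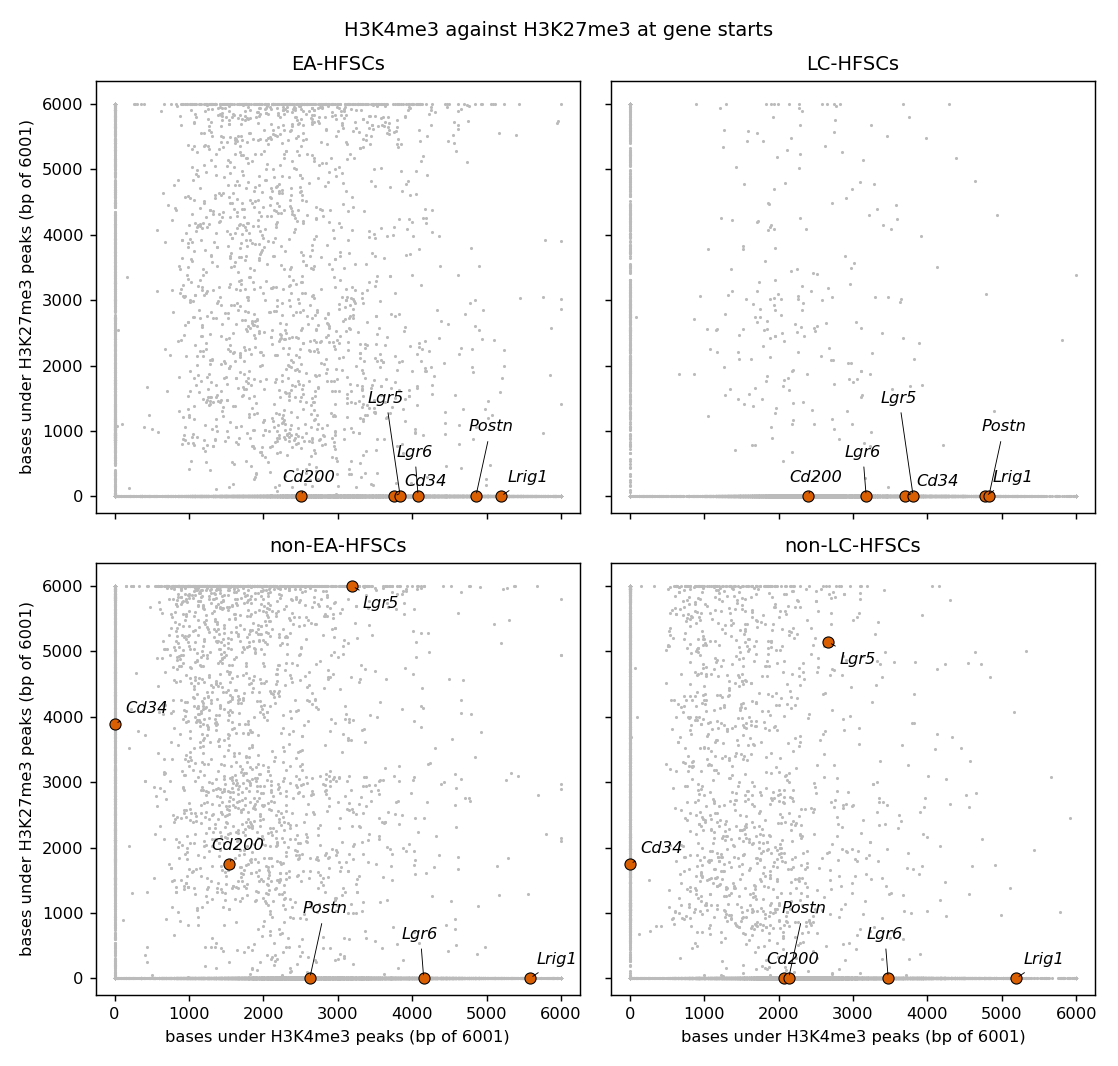
Bases under H3K27me3 peaks (vertical, bp of 6001) against bases under H3K4me3 peaks (horizontal, bp of 6001) within 3000 bp of the gene start, 1 panel per population; grey points are all protein-coding genes and orange points the 6 members. In the HFSC panels the 6 members lie along the bottom, and in the non-HFSC panels Cd34 moves to the left edge and Lgr5 to the upper middle, at 6001 and 5145 bp of H3K27me3.

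Cd34 encodes a sialomucin of the cell surface and is itself the antigen on which the populations were separated, so its pattern is a check of the sort rather than an independent result. The gene (ENSMUSG00000016494.3) lies at chr1:196765015-196787486 on the plus strand of mm9, spans 22.5 kb and has 2 annotated transcripts that share 1 start. In EA-HFSCs a single H3K4me3 peak of 6320 bp ran from 750 bp upstream of the start to 5569 bp downstream, deep into intron 1, with a score of 3100. A second peak of 1477 bp and a score of 74.2 followed it in the same intron. In LC-HFSCs the peak covered nearly the same ground, 6192 bp from 703 bp upstream to 5488 bp downstream, and its score of 1735 ranked 15 in that list. The 2 peaks shared 3704 bp of the 6001-bp window around the start, all of the LC-HFSC cover there.

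Neither non-HFSC list held an H3K4me3 peak at the start or over the body of Cd34. The non-EA-HFSCs had a 3891-bp H3K27me3 peak there that began 1509 bp upstream, ended 2381 bp downstream and scored 271. That of the non-LC-HFSCs was 1751 bp wide, began 728 bp upstream, ended 1022 bp downstream and scored 119.7. The H3K27me3 of the CD34- cells thus covered the same promoter and first part of intron 1 that carried H3K4me3 in the CD34+ cells, with 3132 bp in common at early anagen and 1726 bp at late catagen. No H3K9me3 peak lay at the start or over the body of Cd34 in any of the 4 lists.

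The switch at Cd34 was shared by few genes. H3K4me3 in both HFSC lists and in neither non-HFSC list was found at 52 genes (0.232%), and 6 of them (0.0268%), Cd34 included, also carried H3K27me3 in both non-HFSC lists and in neither HFSC list. The other 5 were Krt19, Frem1, Begain, Peg10 and Sgce, named after their values were seen. Krt19, a simple-epithelial keratin known from the bulge, was the 1 other gene with the calls of Cd34 in all 12 lists, although its H3K4me3 peaks, like those of Frem1, lay near other transcript starts and not within 3000 bp of its annotated gene start. Peg10, an imprinted gene, and Sgce, which encodes epsilon-sarcoglycan, have the same 3221 and 3143 bp of H3K4me3 in the HFSC lists because their windows overlap, and so count as a single site. Because this comparison uses the marker of the sort, it describes which other genes separate the lists as Cd34 does and supports nothing further.

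Cd200 encodes an immunoglobulin-family glycoprotein of the surface that restrains myeloid cells through its receptor and is used to enrich follicle stem cells. It lies at chr16:45382248-45409166 on the minus strand (ENSMUSG00000022661.8), spans 26.9 kb and has 11 annotated transcripts with as many starts. Its H3K4me3 peaks at the gene start were the narrowest among the members, 2501 bp in EA-HFSCs, 2391 bp in LC-HFSCs, 1537 bp in non-EA-HFSCs and 2072 bp in non-LC-HFSCs. Their scores were 2963, 824, 1576 and 1261.5 in that order. Narrow did not mean low within a list, since 3.71% of the peaks scored higher in the EA-HFSC list and 2.62% in the LC-HFSC list, against 32.5% and 35.6% in the lists of non-EA-HFSCs and non-LC-HFSCs. EA-HFSCs had a further H3K4me3 peak of 917 bp, 8150 to 9066 bp downstream, near the start of a shorter annotated transcript.

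In non-EA-HFSCs Cd200 also carried a 1742-bp H3K27me3 peak that began 359 bp upstream, ended 1382 bp downstream and scored 109. It contained the whole H3K4me3 peak of that population, 1537 bp. Of the populations, non-EA-HFSCs had the least H3K4me3 and the only H3K27me3 at this gene. No H3K27me3 peak was listed at Cd200 in non-LC-HFSCs, and whether the 2 non-HFSC populations differ there cannot be judged from 1 list each.

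**Figure D3:**
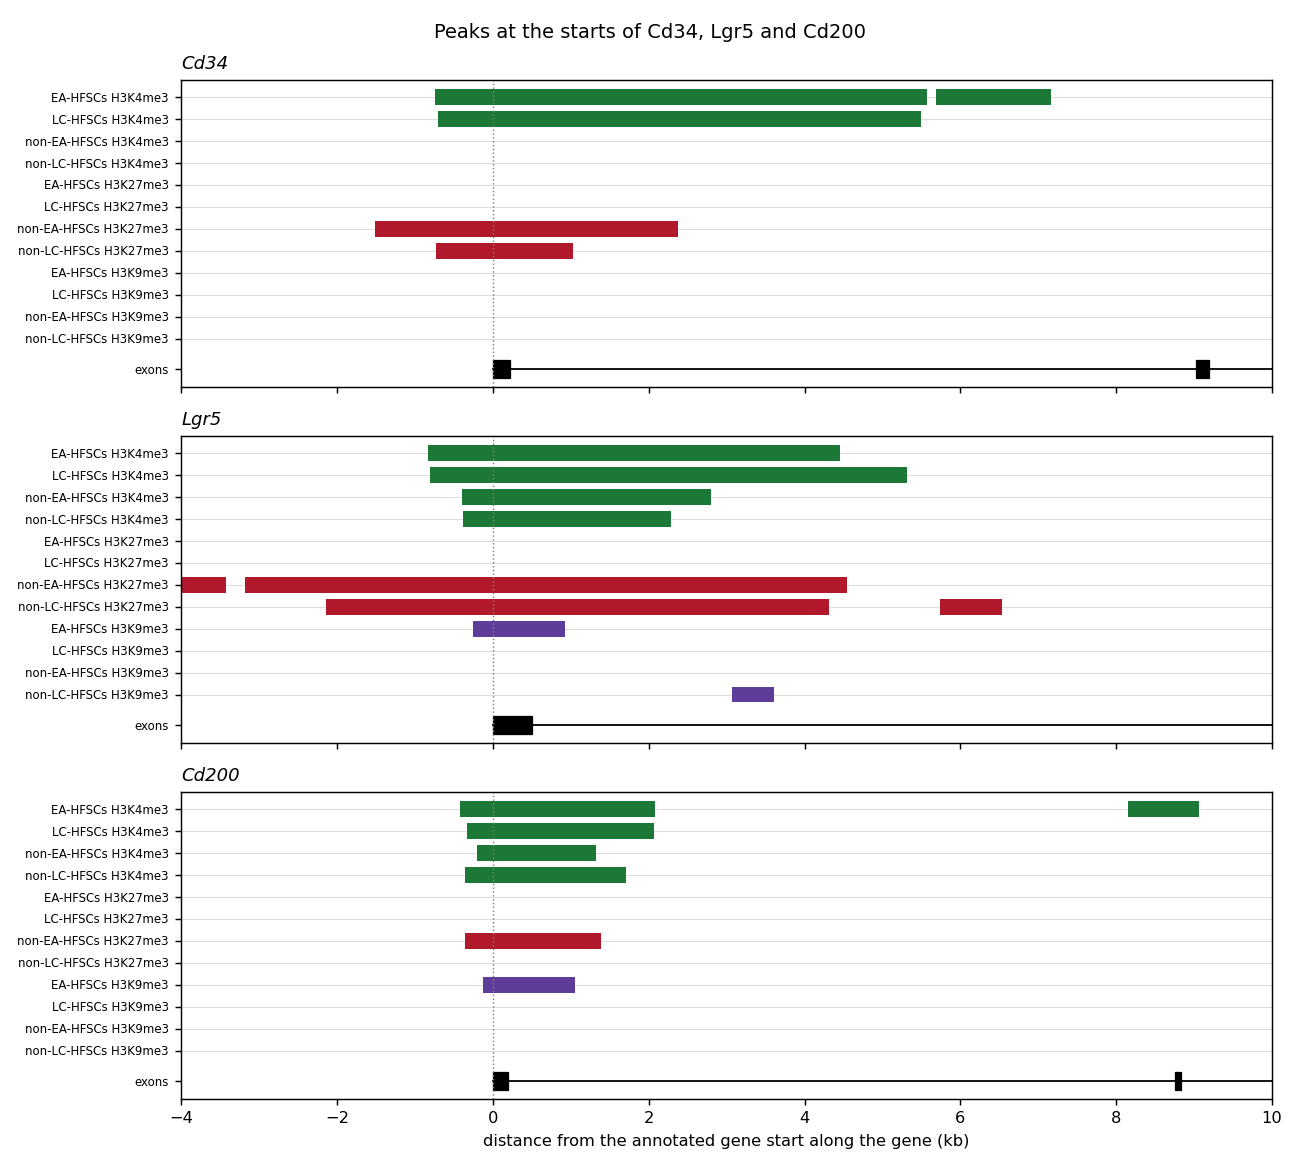
Peaks around the starts of Cd34, Lgr5 and Cd200 in the 12 lists; the horizontal axis is the distance from the annotated gene start along the gene in kb, bars are peaks (green H3K4me3, red H3K27me3, purple H3K9me3) and black boxes are exons of 1 annotated transcript per gene. At Cd34 the green bars stand in the HFSC rows and the red bars in the non-HFSC rows, while at Lgr5 green and red bars overlap in both non-HFSC rows and at Cd200 in the non-EA-HFSC row.

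Lgr5 and Lgr6 encode leucine-rich repeat receptors for R-spondins, secreted proteins that raise the response of a cell to Wnt. Lgr5 (ENSMUSG00000020140.9) lies at chr10:114887367-115024836 on the minus strand, spans 137 kb and has 8 annotated transcripts with 6 starts. At its gene start, H3K4me3 covered 3839 of 6001 bp in EA-HFSCs, 3810 in LC-HFSCs, 3192 in non-EA-HFSCs and 2668 in non-LC-HFSCs. The peaks were 5292, 6119, 3192 and 2668 bp wide with scores of 3100, 320.4, 399 and 123. Thus H3K4me3 was present in all populations, and in the HFSCs it reached 4453 and 5309 bp into intron 1 where in the non-HFSCs it ended at 2800 and 2288 bp. The excess over the matched non-HFSCs was 647 bp at early anagen, which 21.6% of all genes equalled or passed, and 1142 bp at late catagen, which 2.61% did.

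H3K27me3 at the Lgr5 start was listed in the non-HFSCs only, and there it was broad. The peak of non-EA-HFSCs was 7730 bp wide, from 3187 bp upstream to 4542 bp downstream, with a score of 683, and covered all 6001 bp of the window. That of non-LC-HFSCs was 6459 bp wide, from 2144 bp upstream to 4314 bp downstream, with a score of 204.7, and covered 5145 bp. Cover this large or larger was found at 3.25% and 3.04% of all genes. Each contained the H3K4me3 peak of its own population, 3192 and 2668 bp, and whether both marks lay on the same nucleosomes or in different cells of the mixture was not tested. With H3K4me3 in all 4 populations and H3K27me3 in both non-HFSC lists and in neither HFSC list, Lgr5 was 1 of 290 such genes (1.30%).

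Away from its start, Lgr5 carried further differences between HFSCs and non-HFSCs. A small H3K4me3 peak in intron 1, about 30 kb from the start, was listed in EA-HFSCs (30234 to 31530 bp, score 201) and in LC-HFSCs (30561 to 31676 bp, score 50.8), which share 970 bp, and in neither non-HFSC list. The LC-HFSC peak was near the threshold, with 99.4% of its list scoring higher. Another, at 108221 to 109637 bp from the start, was listed in EA-HFSCs with a score of 114, and non-EA-HFSCs had an H3K27me3 peak at 108246 to 109653 bp with a score of 52.6. Both ranked low, with 77.4% and 75.5% of the peaks in their lists scoring higher. These peaks shared 1392 bp (chr10:114915199-114916590) over the end of intron 4, exon 5 and the beginning of intron 5, with H3K4me3 in the CD34+ list and H3K27me3 in the CD34- list of early anagen. Unlike the start of Lgr5, where the non-HFSCs carried both marks, this site had 1 mark in each of the 2 lists, and neither late catagen list had a peak of these marks there. The middle of this site (chr10:114915795-114915994, minus strand) is shown because it carried opposite marks in the 2 populations, with its 5 CG in capitals.
Lgr5 intron 4: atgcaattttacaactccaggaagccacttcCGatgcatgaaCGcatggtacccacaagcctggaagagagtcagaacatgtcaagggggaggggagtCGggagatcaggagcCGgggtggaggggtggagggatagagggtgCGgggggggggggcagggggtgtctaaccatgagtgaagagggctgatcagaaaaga

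Towards the 3′ end of the gene, H3K27me3 peaks of non-EA-HFSCs lay at 116307 to 117968, 118024 to 120054 and 120762 to 123493 bp from the start, with scores of 70.1, 82.2 and 124. Non-LC-HFSCs had 2 smaller ones overlapping the last 2 of them, at 118561 to 119388 and 122498 to 123600 bp, with scores of 43.1 and 42.2, close to the lowest score of 40, and another in intron 1 at 5741 to 6540 bp with a score of 40.6. Upstream of the 6001-bp window, EA-HFSCs had an H3K4me3 peak (score 96.6) and non-EA-HFSCs an H3K27me3 peak (score 41.5). No H3K27me3 peak lay over the body of Lgr5 in either HFSC list. In all, H3K27me3 covered 9.00% of the Lgr5 body in non-EA-HFSCs and 5.13% in non-LC-HFSCs, and with peaks of a score of at least 100 these were 5.29% and 3.14%.

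**Figure D4:**
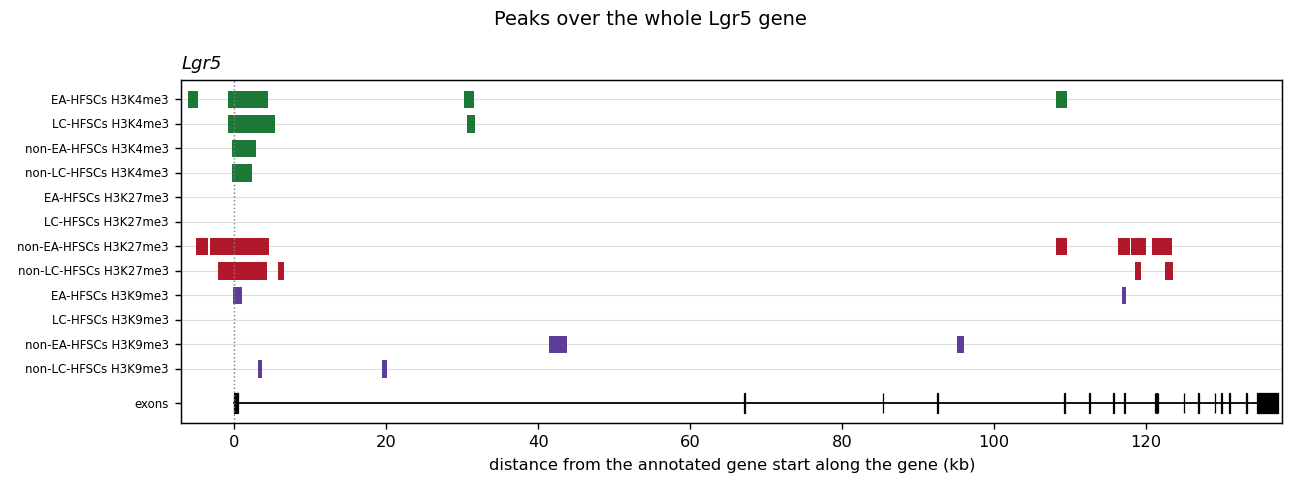
Peaks over the whole of Lgr5 in the 12 lists; the horizontal axis is the distance from the annotated gene start along the gene in kb, bars are peaks (green H3K4me3, red H3K27me3, purple H3K9me3) and black boxes are exons, drawn with a minimum line width. Beyond the start, the green bars at about 30 and 108 kb are in HFSC rows, and the red bars from 108 to 124 kb are in non-HFSC rows.

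Lgr6 marks cells of the isthmus above the bulge and of the interfollicular epidermis. It lies at chr1:136882925-137001853 on the minus strand (ENSMUSG00000042793.7), spans 119 kb and has 3 annotated transcripts with 3 starts. H3K4me3 covered 4080 bp of its window in EA-HFSCs, 3178 bp in LC-HFSCs, 4155 bp in non-EA-HFSCs and 3474 bp in non-LC-HFSCs. Unlike at the other members apart from Lrig1, cover was not larger in the HFSCs than in the matched non-HFSCs. In non-EA-HFSCs the mark formed a single peak of 6423 bp with a score of 3100, where 0.980% of the list was wider, while in EA-HFSCs the same stretch was split into peaks of 3616 bp (score 816) and 2727 bp (score 95.5). A small H3K4me3 peak in intron 1, about 20 kb from the start, was listed in non-EA-HFSCs (1272 bp, score 218) and non-LC-HFSCs (560 bp, score 62.2) and in neither HFSC list. Lgr6 carried no H3K27me3 at a start or over its body in any population, in contrast to Lgr5.

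Lrig1 encodes a transmembrane protein that restrains signalling by ERBB receptors, and marks stem cells of the upper follicle. It lies at chr6:94554523-94650152 on the minus strand (ENSMUSG00000030029.7), spans 95.6 kb and has 6 annotated transcripts with 6 starts. Its H3K4me3 peak at the start was the widest among the 6 genes in every population. It was 14025 bp wide in EA-HFSCs, 7110 bp in LC-HFSCs, 13893 bp in non-EA-HFSCs and 10166 bp in non-LC-HFSCs, which ranked 32, 137, 12 and 20 by width in their lists. The scores were 3100, 445, 3100 and 3100, and 3100 is a value at which many peaks of the 3 lists pile up, with 590, 2701 and 874 peaks at exactly this score. Of all genes, 0.519% in non-EA-HFSCs and 0.478% in non-LC-HFSCs had as much of the window covered as Lrig1.

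H3K4me3 also extended along intron 1 of Lrig1. It covered 18.8% of the gene body in EA-HFSCs, 5.58% in LC-HFSCs, 29.7% in non-EA-HFSCs and 16.6% in non-LC-HFSCs, so that LC-HFSCs had the least and non-EA-HFSCs the most. The non-EA-HFSC list had 7 peaks over the body, the furthest of them 63469 to 65407 bp from the start, the non-LC-HFSC list 6, the EA-HFSC list 2 and the LC-HFSC list 1. The LC-HFSC list also held the fewest H3K4me3 peaks, although by bases it covered 37.7 Mb and the non-LC-HFSC list 37.5 Mb. The part of list size in the lower cover was not tested. Some of these peaks lay near starts of shorter annotated transcripts of Lrig1 itself, and no start of another gene lay within the gene. Like Lgr6, Lrig1 carried no H3K27me3 in any population.

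Postn encodes periostin, a secreted matricellular protein that binds integrins, and so is not a surface antigen like the other members, although it is counted here with the follicle stem cell markers. It lies at chr3:54165031-54194961 on the plus strand (ENSMUSG00000027750.9), spans 29.9 kb and has 10 annotated transcripts with 9 starts. In EA-HFSCs, H3K4me3 covered 4855 bp of its window, and in LC-HFSCs 4825 bp, against 2623 bp in non-EA-HFSCs and 2135 bp in non-LC-HFSCs. The HFSC lists thus had 1.85 times the cover of the matched list at early anagen and 2.26 times at late catagen. The excess was 2232 and 2690 bp, which 1.10% and 0.156% of all genes equalled or passed.

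The difference at Postn had 2 parts. The peak over the start was 4415 bp wide in EA-HFSCs and 4580 bp wide in LC-HFSCs, ending 3598 and 3862 bp downstream, and 2623 and 2135 bp in the non-HFSCs, ending 2085 and 1690 bp downstream. A separate peak about 2 to 3 kb upstream was listed in EA-HFSCs (1038 bp, score 111) and in LC-HFSCs (1107 bp, score 51.6) and in neither non-HFSC list. The 4 peaks at the start scored 1704, 757, 913 and 424, and within the LC-HFSC list 3.66% of the peaks scored higher. Postn carried H3K4me3 in all 4 populations, so the difference was one of extent, at the member with the fewest CpG in its promoter, and no H3K27me3 or H3K9me3 peak was listed at this gene.

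**Figure D5:**
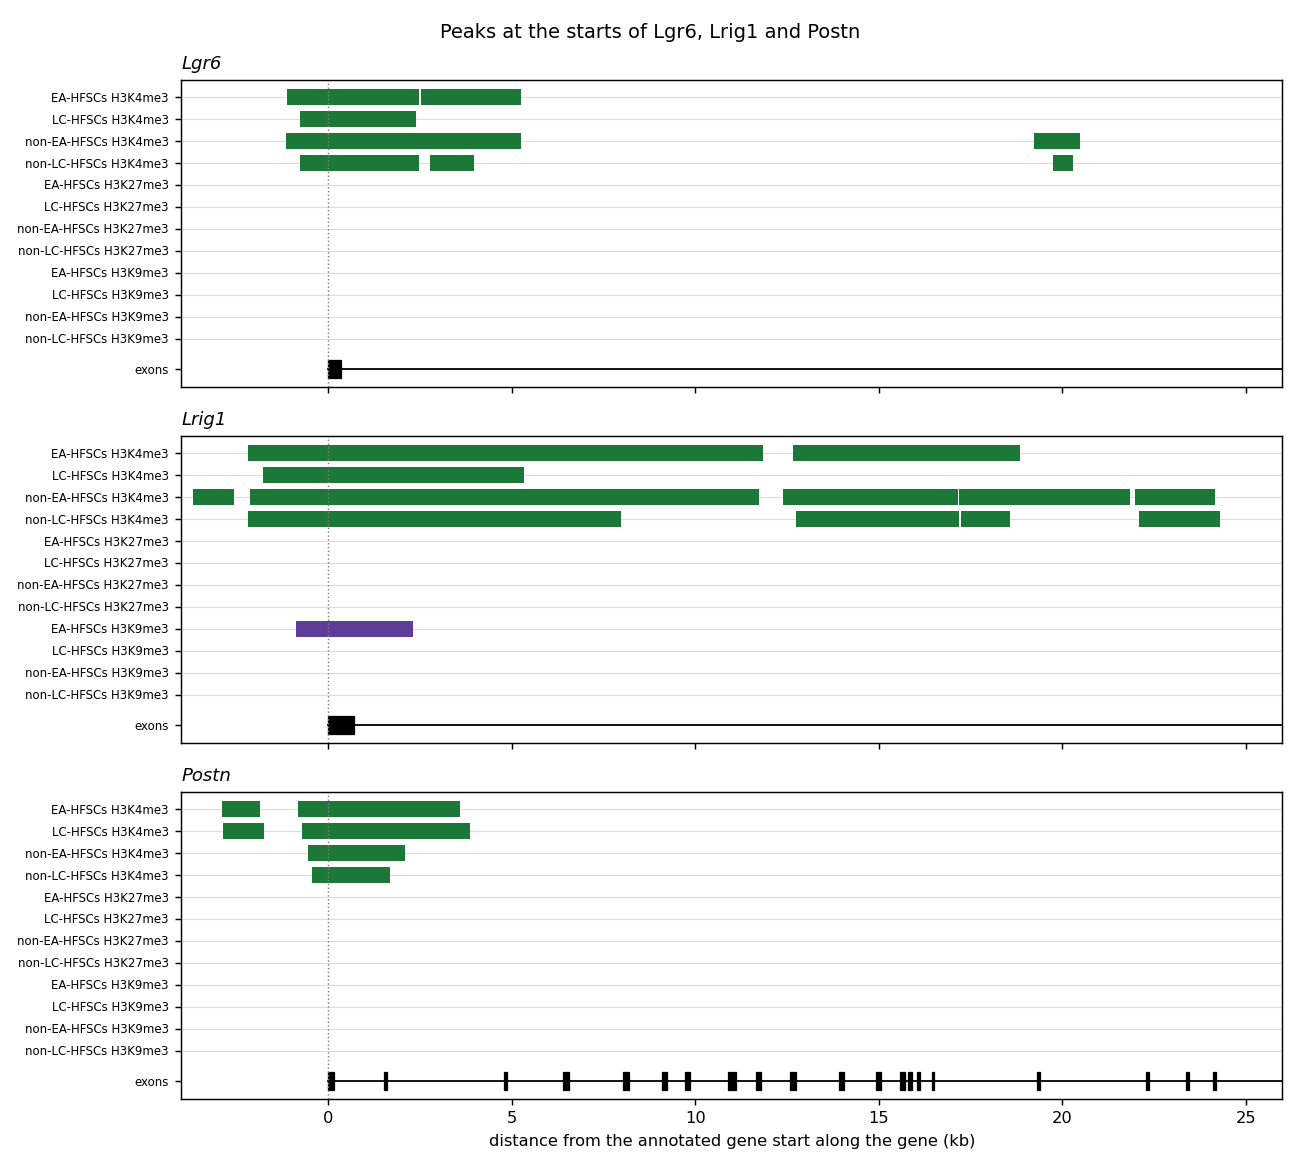
Peaks around the starts of Lgr6, Lrig1 and Postn in the 12 lists; the horizontal axis is the distance from the annotated gene start along the gene in kb, bars are peaks (green H3K4me3, purple H3K9me3) and black boxes are exons. No H3K27me3 bar appears. The Lrig1 bars reach least far in LC-HFSCs, and the last ones drawn end at 24162 bp in non-EA-HFSCs and 24286 bp in non-LC-HFSCs. Further Lrig1 peaks of non-EA-HFSCs, from 31090 bp on, lie outside the drawn range. At Postn the HFSC bars are the longer ones and the 2 upstream bars are in HFSC rows.

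Across the members, H3K4me3 cover at the gene start differed little between EA-HFSCs and LC-HFSCs at Cd34 (47 bp less in LC-HFSCs), Lgr5 (29 bp less), Postn (30 bp less) and Cd200 (110 bp less), and more at Lrig1 (410 bp less) and Lgr6 (902 bp less). All 6 values were lower in LC-HFSCs, whose list held the fewest H3K4me3 peaks. Changes as low or lower were found at 50.2% to 53.4% of all genes for Cd34, Lgr5, Postn and Cd200, and at 36.8% for Lrig1. All genes include those without H3K4me3 cover, whose change was 0, and 13508 of the 22367 had cover in EA-HFSCs. In the non-HFSCs cover also fell at Lgr5 (524 bp), Lgr6 (681 bp), Lrig1 (389 bp) and Postn (488 bp). It was 0 in both at Cd34 and rose by 535 bp at Cd200. A change of −902 bp or lower was found at 20.0% of all genes. Lgr6, the member with the largest difference by stage in the HFSCs, is also one whose cover in the non-HFSCs was larger than in the HFSCs at both stages.

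H3K9me3 was listed at a start of 4 of the 6 genes in at least 1 population, most often in the longest list, that of EA-HFSCs. It was at a start of 3 of 6 members in EA-HFSCs (Lgr5, Lrig1 and Cd200), where 47.9% of all genes had it, and of 0 of 6 in LC-HFSCs (0.505%) and 0 of 6 in non-EA-HFSCs (4.14%). In non-LC-HFSCs it was at 2 of 6 (Lgr5 and Lgr6, 14.1%), in both cases near a transcript start inside the gene and with scores of 42.1 and 55.7. The count of 3 members with H3K9me3 in EA-HFSCs and not in LC-HFSCs stands beside 47.6% of all genes and is not a result about the members. At Lrig1 the EA-HFSC peak was 3200 bp wide with a score of 255, in the upper part of its list, where 2.17% of the peaks scored higher. It lay wholly within the H3K4me3 peak of EA-HFSCs, as did the smaller H3K9me3 peaks at Lgr5 (1186 bp, score 51.6) and Cd200 (1177 bp, score 68.3). Lrig1 was the 1 member still marked in EA-HFSCs when a score of at least 100 was required.

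Over the gene bodies, H3K4me3 and H3K27me3 were called at as many members as at the starts, and H3K9me3 at 2 more in non-EA-HFSCs. H3K4me3 lay over the body of 6 of 6 members in EA-HFSCs (63.1% of all genes), 6 in LC-HFSCs (56.0%), 5 in non-EA-HFSCs (62.2%) and 5 in non-LC-HFSCs (59.1%). H3K27me3 lay over 0 of 6 in EA-HFSCs (14.7%), 0 in LC-HFSCs (3.81%), 3 in non-EA-HFSCs (17.0%) and 2 in non-LC-HFSCs (13.4%). H3K9me3 lay over 3 in EA-HFSCs (51.1%), 0 in LC-HFSCs (1.46%), 2 in non-EA-HFSCs (13.4%) and 2 in non-LC-HFSCs (22.2%). The 2 in each non-HFSC list were Lgr5 and Lgr6, the longest members, which exceed 92.9% and 91.5% of all genes in length; the part of length in these calls was not tested. Their non-HFSC H3K9me3 peaks were intronic, with scores from 41.6 to 93.1, and 1 site in intron 3 of Lgr6 was shared by both lists over 571 bp. By share of the body, H3K4me3 was densest at Cd34 in the HFSCs, with 31.4% at early anagen and 24.4% at late catagen.

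The genes most like each member were taken from the bases covered at the gene start, as the smallest mean absolute difference over the 12 lists. For Cd34 these were Peg10 (213.2 bp), Sgce (221.7 bp) and Ltbp4 (353.6 bp), where the median gene differed from Cd34 by 1093 bp. For Lgr5 they were Cxcl12 (207.2 bp), Chst11 (209.3 bp) and Kirrel (221.4 bp). All had H3K27me3 in the non-HFSC lists and none in the HFSC lists, a likeness that follows from how they were chosen. For Cd200 they were Eml5, Rundc3b and Aqp11, from 113.1 to 118.3 bp, and for Postn Scx (64.8 bp), Gm12824 and Shf. For Lrig1 they were Epha4, Trip10 and Zbtb25, from 83.2 to 100.6 bp, and for Lgr6 Anapc2 and Ssna1, which share a window, and Lrrc8a, from 42.9 to 50.1 bp. How many genes shared a member's calls in all 12 lists differed widely, from 1 for Cd34, 23 for Lgr5 and 148 for Cd200 to 310 for Lgr6, 2507 for Postn and 5668 for Lrig1. The calls of Lgr6, Lrig1 and Postn for H3K4me3 and H3K27me3 were common, being those of 10488 other genes.

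The receptors, ligands and relatives of the members were counted from lists of 26 genes. H3K4me3 was at a start of 20 of 26 in EA-HFSCs (62.4% of all genes). It was at 19 in each of LC-HFSCs (55.9%), non-EA-HFSCs (61.7%) and non-LC-HFSCs (58.8%). H3K27me3 was at 7 in EA-HFSCs (14.0%), 1 in LC-HFSCs (3.73%), 8 in non-EA-HFSCs (16.8%) and 6 in non-LC-HFSCs (12.9%). The α6-integrin gene Itga6, which encodes the sorting antigen shared by all populations, carried H3K4me3 and no H3K27me3 in each of them. Its H3K4me3 lay near another transcript start and not within 3000 bp of its annotated gene start. Lgr4, the third R-spondin receptor of the family, had H3K4me3 over 3768 to 3975 bp and no H3K27me3 in any population, like Lgr6 and unlike Lgr5. The R-spondin ligand genes carried H3K27me3 in EA-HFSCs as well as in non-EA-HFSCs, over 5802 and 6001 bp at Rspo1, 4611 and 3410 bp at Rspo2, 5653 and 2394 bp at Rspo3 and 3846 and 4013 bp at Rspo4. H3K27me3 was thus listed in EA-HFSCs at the ligand genes and not at the receptor genes, and no ligand gene had an H3K27me3 peak in the short LC-HFSC list.

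Among the partners of the other members, Erbb4, an ERBB receptor, carried H3K4me3 in all 4 populations and H3K27me3 in all but LC-HFSCs, over 3387 bp in EA-HFSCs, 5747 bp in non-EA-HFSCs and 4480 bp in non-LC-HFSCs. Itgb3, the β3-integrin gene and a periostin receptor subunit, showed the same calls for these marks, with 5094, 5832 and 1807 bp of H3K27me3. Podxl, the relative of Cd34 that encodes podocalyxin, carried both marks in all 4 populations, with 5655 bp of H3K27me3 in EA-HFSCs, 1106 bp in LC-HFSCs, 5951 bp in non-EA-HFSCs and 5071 bp in non-LC-HFSCs. It was the 1 gene of the 26 with an H3K27me3 peak in LC-HFSCs. The 4 CD200 receptor genes, known mainly from myeloid cells, carried no H3K4me3 in any population.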

How the data were processed

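ChIP-seq for H3K4me3, H3K27me3 and H3K9me3 was analysed in 4 sorted populations, 12 of the 16 labelled samples, the other 4 being IgG backgrounds. Per the study's methods, the authors cut chromatin with micrococcal nuclease, trimmed single-end reads, aligned them to mm9 with Bowtie2, pooled replicate experiments and called peaks with MACS 1.4 against IgG at p-values of 1e-05 (H3K4me3) or 0.0001. The deposited lists give each peak's position and a score, 10 times the negative log10 of its p-value. The submitters' processing notes also name Trimmomatic 0.22, HOMER and Cuffdiff. The lists give no read numbers and were not scaled to each other, and depth and background affect how many peaks pass; per the study's text, LC-HFSCs, with the shortest lists, were sequenced more deeply than EA-HFSCs.

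Peaks were set against GENCODE vM1 on NCBIM37 (the mm9 assembly) with Python 3.11.15 and numpy 2.4.6, on chromosomes 1 to 19, X and Y; 733 peaks on unplaced sequence were left out. Overlap was checked on simulated peaks and against bedtools 2.31.1. The study's replicate experiments are pooled in the lists, so no test was made. The 6 members and the lists of related and marker genes were chosen with earlier results of these data known. Named genes are the members, Itga6, Lgr4, list genes with H3K27me3 in HFSCs, and marker genes given with their calls. Also named are the 3 genes most like each member, and genes said to be named after their values were seen. Alternatives were narrower windows, other transcript starts, stricter scores, lists of equal length and a 50% overlap.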

Additional observations from a re-analysis of the deposited data

Results flagged for a closer look

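H3K4me3 cover at the start of Cd200 moved in opposite directions between the stages in the sorted populations. In the HFSCs it was 2501 bp at early anagen and 2391 bp at late catagen, a difference of −110 bp, and in the non-HFSCs it was 1537 and 2072 bp, a difference of 535 bp. In the HFSCs 50.2% of all genes had a change of −110 bp or lower, so that fall was near the middle of all genes. There is 1 list per population, so the difference between the populations was not tested. The other 5 members had lower or equal cover at late catagen in both. In the non-HFSCs 1.01% of all genes gained as many bases, and in the non-EA-HFSCs the H3K4me3 peak lay wholly under an H3K27me3 peak that non-LC-HFSCs lacked, whose part in it was not tested.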

How the results depend on the processing

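Of 176 counts recomputed under an alternative, 153 stayed within 1.5 times the reported count and 23 did not. The alternatives could only remove calls, so counts reported as 0 could not change, and they are among the 153. Every count of H3K4me3 stayed within 1.5 times. With equal numbers of top-scoring peaks per list of a mark (14718, 1909 and 1414), members with H3K27me3 at a start were 1 in non-EA-HFSCs and 0 in non-LC-HFSCs, those with both marks 1 and 0, and those with H3K9me3 1 in EA-HFSCs and 0 in non-LC-HFSCs. Over the bodies the same setting left H3K27me3 at 1 in non-EA-HFSCs and 0 in non-LC-HFSCs, and H3K9me3 at 1 in EA-HFSCs and 0 in both non-HFSC lists. A score of at least 100 left H3K9me3 at a start, and over a body, of 1 member in EA-HFSCs and 0 in the non-HFSCs, and a score of at least 50 left 1 over a body in non-EA-HFSCs. The non-LC-HFSC count of H3K9me3 at a start was 1 with a 2500 bp window, protein-coding transcripts, a score of at least 50 or 50% of the peak in the window, and 0 with a 1000 bp window or the gene start only. Of 216 percentages of a gene body, 176 were equal to the reported value (114 of them 0 in both) and 40 were lower, 27 of these by more than 1.5 times, 17 of which were at 0. The cause was not tested, beyond that stricter settings hold fewer peaks.

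No paired analysis was possible because each population and mark has 1 pooled list. Without replicate lists or reads per peak, a missing peak shows only that none passed the authors' threshold, and the LC-HFSC lists were the shortest although the study sequenced these cells more deeply than EA-HFSCs.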
